A study of Homo sapiens with 18 samples.

Results

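The locus around MYC and PVT1 on the long arm of chromosome 8 was described by its open chromatin in 6 human ovarian cancer cell lines. Its members were taken by position alone, as every 1 kb window of the accessibility table on chromosome 8 with a deposited start from 127500000 to 129900000 (GRCh37/hg19). This gave 221 of the 89428 windows of the table, in 115 runs of adjacent windows that are called sites here. MYC starts at 128748477 on the plus strand and PVT1 starts 58.3 kb further downstream, at 128806787, and ends at 129199347. Of the 221 windows, 85 lay upstream of MYC, 8 between 5 kb before the MYC start and the end of MYC, 3 between MYC and the PVT1 start, 87 in the PVT1 gene and 38 downstream of PVT1.

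MYC encodes a transcription factor that binds DNA as a dimer with MAX and drives genes of growth, ribosome production and metabolism. PVT1 is a long non-coding RNA gene next to MYC, and gain of the chromosome arm that carries both is common in high-grade serous ovarian cancer. MYC has few regulatory sites in its own body, and much of its known control comes from enhancers spread over the gene-poor flanks and the PVT1 introns, used differently in different tissues. ATAC-seq marks such sites because the Tn5 transposase inserts into open chromatin.

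Each line had 3 replicate libraries, and the lines are compared in 3 pairs, platinum-resistant against platinum-sensitive. CP70 was selected in culture for resistance from A2780, which the labels give as endometrial/ovarian. PEA1 (sensitive) and PEA2 (resistant) came from the ascites of a patient with high-grade serous cancer, before platinum chemotherapy and at relapse, and PEO1 (sensitive) and PEO4 (resistant) came from another such patient, both after platinum-based chemotherapy, before and after resistance developed. All were grown in RPMI-1640 with glutamine and 10% serum. Each group is 1 line of 1 donor, and a difference between lines is a difference between these lines. Values are FPKM, and since all windows are 1000 bp long, they can be compared between windows as well as between lines. In bulk libraries, fewer cells with an open site and a less open site in every cell cannot be told apart.

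Library totals recovered from the values ran from 8972042 to 60495462 reads. The share of reads that fell in the windows of the table separated most lines, though CP70 and PEA1 overlapped, with 8.37% to 10.0% for A2780, 11.8% to 15.6% for CP70, 12.8% to 16.8% for PEA1, 17.0% to 20.7% for PEA2, 38.9% to 40.8% for PEO1 and 32.8% to 35.9% for PEO4. FPKM is scaled to all reads of a library, so this share moves with every level below, and its part in the differences between pairs was not tested. The locus held 0.0116% to 0.0126% of the reads for A2780, 0.0139% to 0.0181% for CP70, 0.0409% to 0.0537% for PEA1, 0.0448% to 0.0510% for PEA2, 0.114% to 0.116% for PEO1 and 0.116% to 0.117% for PEO4. At the start windows of the epithelial and serous markers, PAX8 stood at 0.610 FPKM and WT1 at 1.10 FPKM in A2780, against 7.90 and 16.5 in PEO1. In PEA1 they stood at 3.37 and 1.97, and in PEA2 at 2.47 and 4.10. EPCAM and CDH1 were no higher in PEA1 (1.10 and 1.01) than in CP70 (1.18 and 1.09). KRT8 and KRT18 were higher in PEA1 (2.57 and 2.32) than in CP70 (1.47 and 1.99). The start windows of MUC16, of the blood cell markers PTPRC and CD3E and of the endothelial marker PECAM1 were not analysed here. VIM, a mesenchymal gene, was highest in PEA1 at 10.2 ± 1.49 FPKM (SD, n = 3).

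**Figure D1:**
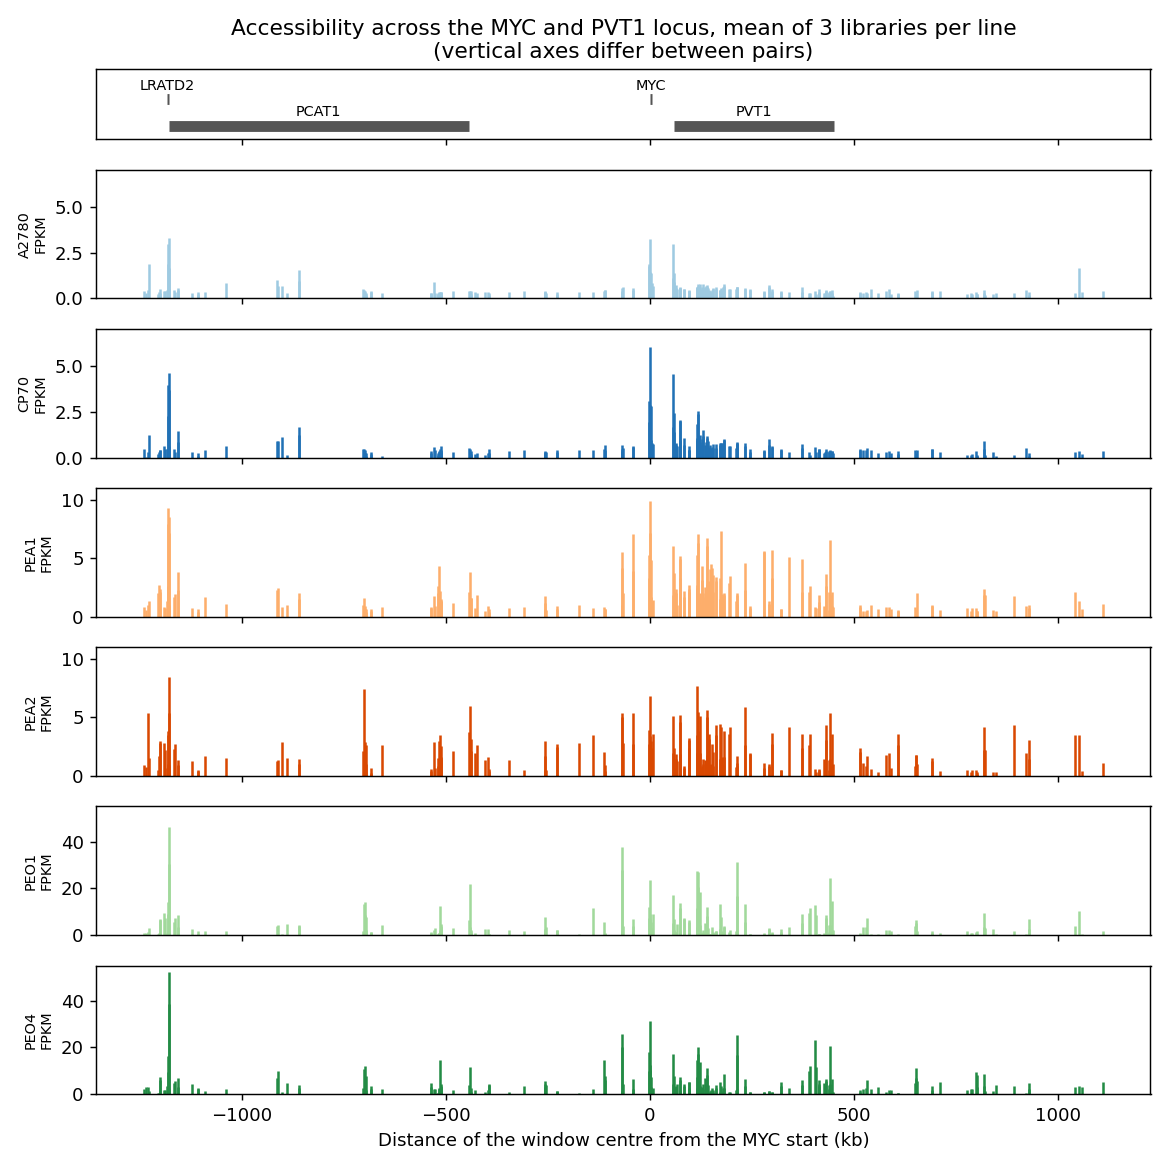
Mean FPKM of 3 libraries (vertical axes, which differ between the pairs) for each of the 221 windows against the distance of its centre from the MYC start in kb, in 6 panels for the 6 lines, with the positions of LRATD2, PCAT1, MYC and PVT1 on top. PEO1 and PEO4 have tall windows at LRATD2, MYC and PVT1 and at many sites between genes, whereas in A2780 and CP70, on an axis that ends far lower, the tallest windows sit at the starts of LRATD2, MYC and PVT1.

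The window that holds the MYC start at 128748477, chr8:128747701-128748700, lies mostly upstream of that start and ends inside the gene. Its FPKM was 2.65, 4.08 and 2.96 for the 3 A2780 libraries, 7.65, 6.52 and 3.81 for CP70, 11.1, 10.9 and 7.77 for PEA1, 7.36, 5.95 and 7.19 for PEA2, 23.7, 24.3 and 22.5 for PEO1 and 31.2, 32.8 and 30.0 for PEO4. The order of the means was A2780 (3.23 ± 0.751), CP70 (6.0 ± 1.97), PEA2 (6.84 ± 0.769), PEA1 (9.93 ± 1.88), PEO1 (23.5 ± 0.925) and PEO4 (31.3 ± 1.38). The libraries of A2780 and CP70 overlapped, as did those of CP70 and PEA2, and each further step up the order separated all libraries.

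Much of this order was shared with other gene starts. Over the 31836 windows of the table near a gene start outside the locus, the median was 1.38 FPKM for A2780, 2.13 for CP70, 2.28 for PEA1, 2.09 for PEA2, 4.77 for PEO1 and 4.41 for PEO4. Set against the start-proximal windows of 8q in the same library, the MYC start stood higher in every line, by 1.21 ± 0.29 on the log2 scale for A2780, 1.60 ± 0.40 for CP70, 1.72 ± 0.08 for PEA1, 1.36 ± 0.12 for PEA2, 1.87 ± 0.06 for PEO1 and 2.01 ± 0.05 for PEO4. Within its own library it ranked at the 95.3rd percentile of all windows for A2780, the 96.7th for CP70, the 99.8th for PEA1, the 97.9th for PEA2, the 98.7th for PEO1 and the 99.6th for PEO4.

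Within pairs, the MYC start window differed by amounts below the threshold for a call, which was a log2 fold change beyond 2 in size at an adjusted p below 0.001. CP70 was higher than A2780 by 0.84 on the log2 scale (adjusted p = 0.0157, limma), PEA2 was lower than PEA1 (log2 fold change -0.52, adjusted p = 0.0436), and PEO4 was higher than PEO1 by 0.41 (adjusted p = 1.20e-04). With each library centred on its median over the windows tested, these became 0.26, -0.89 and 0.76. Leaving out 1 library raised the adjusted p to as much as 0.138 in the A2780 pair, where it passed 0.05 without A2780 replicate 1 or 3 or CP70 replicate 2, and to as much as 0.223 in the PEA pair, where it passed 0.05 without PEA1 replicate 1 or 2 or any of the PEA2 libraries. In the PEO pair it stayed at or below 0.00170.

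The other windows over MYC moved largely with its start. The window over an exon of MYC 1.5 kb further on, chr8:128749501-128750500, held 1.26, 0.856 and 1.22 FPKM for A2780, 3.86, 2.45 and 2.22 for CP70, 8.20, 6.79 and 6.42 for PEA1, 3.79, 3.35 and 3.15 for PEA2, 8.80, 10.1 and 8.36 for PEO1 and 11.5, 13.7 and 12.4 for PEO4. No library of A2780 reached CP70, and none of PEA2 reached PEA1. The log2 fold change was 1.26 in the A2780 pair (adjusted p = 1.57e-05), -1.03 in the PEA pair (adjusted p = 1.79e-05) and 0.45 in the PEO pair (adjusted p = 9.20e-04), and it kept these directions under every scaling tried. Behind the gene the order changed. At chr8:128754901-128755900, between MYC and PVT1, PEO1 was highest with 9.06 ± 1.47 FPKM, PEO4 had 2.53 ± 0.244 and PEA2, with 3.61 ± 0.290, lay above PEA1 with 1.46 ± 0.281. CASC11, a long non-coding RNA gene that starts just upstream of MYC on the other strand, had its start window at 1.76 ± 0.288 FPKM for A2780 and 9.93 ± 0.842 for PEO4.

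The PVT1 start window, chr8:128806201-128807200, held 2.93, 3.38 and 2.55 FPKM for A2780, 6.52, 3.59 and 3.48 for CP70, 6.66, 6.32 and 5.27 for PEA1, 5.61, 4.91 and 4.84 for PEA2, 15.9, 17.2 and 18.8 for PEO1 and 16.1, 18.7 and 17.4 for PEO4. PEO1 and PEO4 stood apart from the other 4 lines and overlapped each other, and CP70, PEA2 and PEA1 formed overlapping neighbours. Its log2 fold change was 0.55 in the A2780 pair (adjusted p = 0.0932), -0.24 in the PEA pair (adjusted p = 0.357) and 0.01 in the PEO pair (adjusted p = 0.943). The sign in the A2780 and PEO pairs turned with the scaling, to -0.03 with median centring in the former and to -0.12 with 8q centring in the latter. Relative to the MYC start of the same library, a ratio that a single scaling factor per library does not move, the PVT1 start reached 93.1% ± 15.1 for A2780, 77.1% ± 19.4 for CP70, 61.9% ± 5.22 for PEA1, 75.3% ± 7.65 for PEA2, 73.8% ± 8.73 for PEO1 and 55.6% ± 3.40 for PEO4 (SD, n = 3).

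**Figure D2:**
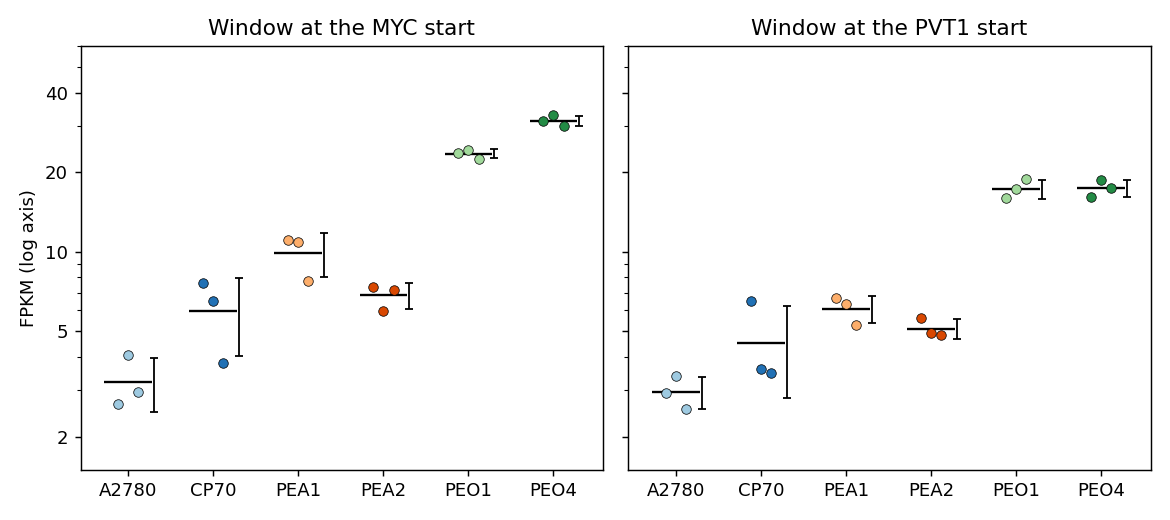
FPKM on a log axis at the windows of the MYC start and the PVT1 start, with a point for each library, a line at the mean and a bar of 1 SD for the 6 lines. MYC rises from 3.23 in A2780 to 31.3 in PEO4, whereas at PVT1 the libraries of PEO1 and PEO4 overlap.

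Among the other genes of the locus, the start windows of LRATD2 and PCAT1 stood above that of MYC in both PEO lines. PCAT1, a long non-coding RNA gene known from prostate cancer, has its start in chr8:127569601-127570600, which held 1.63 ± 0.316 FPKM for A2780, 3.66 ± 0.503 for CP70, 7.17 ± 0.880 for PEA1, 8.47 ± 1.07 for PEA2, 46.4 ± 1.11 for PEO1 and 52.2 ± 2.40 for PEO4. LRATD2, the protein-coding gene that starts on the opposite strand in the next window, held 3.28 ± 0.929, 4.63 ± 1.10, 8.50 ± 1.49, 5.35 ± 0.329, 30.5 ± 0.942 and 38.7 ± 1.91 in the same order. The remaining start windows were low. Those of the unnamed transcript ENSG00000253220, of LINC02912 and of ENSG00000286034 did not exceed 2.38 FPKM in any line mean, that of ENSG00000286010 lay between 0.539 for CP70 and 4.44 for PEO4, and that of ENSG00000253530 was highest for PEA2 at 5.37 ± 1.10, with 3.04 ± 0.188 for PEO4 and at most 1.39 elsewhere. Of 23 genes the annotation starts in the locus, 10 had a start window in the table, and CCAT2, POU5F1B, CASC8 and the others were not analysed here.

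The promoters whose profile over the 6 line means was most like that of MYC, by the root mean square difference of centred log2 values over 12618 protein-coding promoters, were those of DERL1 (0.102), BRIP1 (0.111), STAU2 (0.113), NFKBIA (0.115) and ATP6V1C1 (0.128). DERL1, STAU2 and ATP6V1C1 lie on chromosome 8 as well. For PVT1 they were SNX15 (0.0503), TPD52L1 (0.0801), PURB (0.0914), DAD1 (0.0932) and ZNF607 (0.0936). The median promoter was 0.661 from MYC and 0.538 from PVT1. MYC and PVT1 were 0.233 apart, closer to each other than the median promoter was to either. The neighbours listed were picked as the nearest by this same distance, so they give no scale for it. The 6 points of a profile share the library totals and open shares given above, so the likeness is a description.

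Most windows lay away from gene starts. Of the 221 windows, 178 (80.5%) were distal, with a centre over 1 kb from any annotated gene start, close to the 79.2% of 8q outside the locus. A mean above 2 FPKM was found in 0 of the 178 for A2780, 2 for CP70, 65 for PEA1, 73 for PEA2, 96 for PEO1 and 127 for PEO4. Every window of the table was over 2 FPKM in at least 2 libraries. On the distal windows of the rest of 8q the shares were 1.06%, 2.78%, 18.8%, 36.0%, 51.6% and 61.3%, against 0%, 1.12%, 36.5%, 41.0%, 53.9% and 71.3% in the locus.

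The distal window with the highest mean of the locus lay at -67.8 kb from the MYC start, in an intron of the transcript ENSG00000286010, at chr8:128680201-128681200. It held 0.384, 0.270 and 0.595 FPKM for A2780, 0.379, 0.419 and 0.670 for CP70, 6.34, 6.32 and 3.84 for PEA1, 6.05, 4.91 and 5.19 for PEA2, 42.5, 34.6 and 35.3 for PEO1 and 24.0, 25.6 and 27.2 for PEO4. In PEO1 every library was above its own MYC start window, while A2780 and CP70 stayed at or below 0.670. PEO1 lay above PEO4 with no overlap (log2 fold change of PEO4 against PEO1 -0.54, adjusted p = 3.40e-06), and the PEA lines overlapped.

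Sites in PVT1 also differed between the pairs. At chr8:129188701-129189700, near the 3′ end of PVT1, the means were 0.392 ± 0.0935 for A2780, 0.434 ± 0.125 for CP70, 6.58 ± 0.924 for PEA1, 5.39 ± 0.949 for PEA2, 24.3 ± 0.647 for PEO1 and 20.6 ± 2.00 for PEO4. At chr8:128961901-128962900 the PEO lines stood far above the others, with 30.4, 31.7 and 32.0 FPKM for PEO1 and 25.1, 25.7 and 25.8 for PEO4, against 1.68 to 2.52 for PEA1, 1.46 to 1.98 for PEA2 and 0.628 to 0.838 for A2780 and CP70. The window over a PVT1 exon at chr8:128866501-128867500 was higher in every CP70 library than for A2780, with 3.56, 2.04 and 1.97 FPKM for CP70 against 0.767, 0.879 and 0.661 for A2780, and 27.0 ± 1.20 for PEO1.

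Measured against the MYC start of the same library, which takes out library scaling, the lines still differed. A window counted as strong when it reached 50% of the MYC start in all 3 libraries of a line. This held for 7 windows for A2780, 4 for CP70, 16 for PEA1, 33 for PEA2, 21 for PEO1 and 13 for PEO4, and the distal ones among them numbered 1, 0, 7, 24, 13 and 5. PEA2, whose MYC start was lower than that of PEA1, had the most. Its MYC start also stood least above the 8q median of its libraries, by 1.92 on the log2 scale, against 2.80 in PEA1 and 3.52 in PEO4. The same count over the rest of 8q was not made. Windows above the MYC start in every library numbered 8 for PEO1, 2 for PEO4, 2 for PEA2 and 0 for A2780, CP70 and PEA1.

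The table holds 8.29% of the 2667 possible 1 kb windows of the locus, against 4.55% of those on the rest of 8q. Among the windows in the table, the median level of the locus differed little from that of the rest of 8q. The median of log2(FPKM + 0.1) over its windows, minus the median over the 4906 other windows of 8q, was -0.29 ± 0.06 for A2780, -0.30 ± 0.04 for CP70, 0.22 ± 0.11 for PEA1, 0.02 ± 0.09 for PEA2, 0.15 ± 0.05 for PEO1 and 0.28 ± 0.04 for PEO4 (SD, n = 3; a description, with no test). Against 5 Mb on either side the same values were -0.09, 0.00, 0.26, -0.19, 0.02 and 0.17, and against all windows off chromosome 8 they were -0.59, -0.79, 0.37, 0.00, -0.11 and 0.52. The arm itself moved, since windows off chromosome 8 stood above 8q by 0.30 for A2780, 0.48 for CP70 and 0.26 for PEO1 and differed from it by -0.15 for PEA1, 0.02 for PEA2 and -0.24 for PEO4. Copies of the arm and openness per copy cannot be told apart in these values.

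The sections of the locus differed from each other. The MYC section was above the 8q median in every library, from 0.70 on average in PEA2 to 1.91 in PEO4. This section holds the starts of MYC and CASC11, whereas 79.2% of the windows of 8q outside the locus are distal. The section and its reference therefore differ in kind. The PVT1 gene stood out in PEA1, at 0.76 (0.65 to 0.89 over the libraries), whereas PEA2 was at 0.05 (-0.20 to 0.20), PEO4 at 0.33, PEO1 at 0.19, CP70 at 0.08 and A2780 at -0.09. Downstream of PVT1 the median was below that of 8q in 5 lines, from -0.88 in CP70 to -0.36 in PEA2, and above it in PEO4 alone, at 0.11 (0.06 to 0.16). Upstream of MYC the medians ran from -0.55 in CP70 to 0.20 in PEO4.

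**Figure D3:**
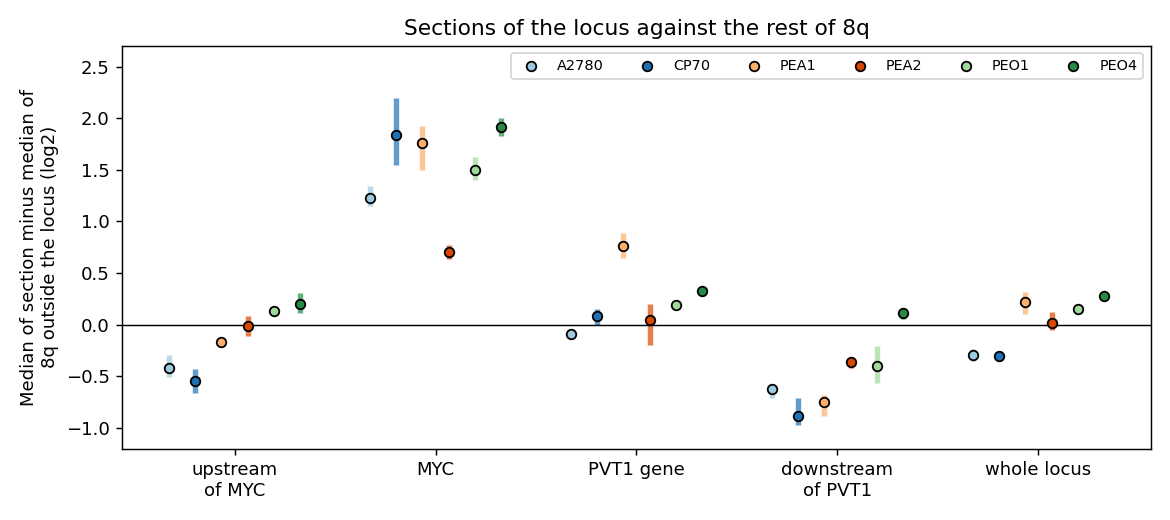
Median log2(FPKM + 0.1) of each section of the locus minus the median of 8q outside it (vertical axis, log2 units) for the 6 lines, with a point at the mean of 3 libraries and a bar over their range; the 3 windows between MYC and PVT1 are not drawn. PEA1 stands highest in the PVT1 gene at 0.76, and PEO4 is the sole line above 0 downstream of PVT1.

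In the A2780 pair, CP70 was higher than A2780 at PVT1 intron sites and lower at a site in CCDC26, a long non-coding RNA gene far downstream. Only 26 of the 221 windows had a mean above 1 FPKM over the pair and were tested. In this and the other pairs, a window low in 1 line passed only through the other, so the counts and medians below describe the windows tested and not the whole locus. None was called higher (0.428% of all windows tested were, limma; 13 had an unadjusted p under 0.05, and edgeR on the recovered reads called none either), and 1 was called lower (0.369% of all windows). At adjusted p under 0.05, 13 were higher and 1 (3.85%) was lower, against 47.5% and 2.29% of all windows and 34.3% and 1.85% of the rest of 8q. The median log2 fold change was 0.62, beside 0.59 over all windows and 0.51 on 8q outside the locus. Higher windows made up 92.9% of these, and 77.8% with median centring. Centring left 7 windows higher (26.9%, against 6.08% of all windows and 2.32% of the rest of 8q) and 2 lower (7.69%, against 9.07% of both), so how the locus stands to its background depended on the scaling. It depended on the filter too. Without the filter on low values, 17 of 221 windows (7.69%) were higher, against 17.7% of all windows and 7.99% of the rest of 8q. Lower ones numbered 3 (1.36%, against 3.17% and 2.65%), and the median log2 fold change was 0.15, beside 0.27 and 0.10.

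The largest gains of CP70 lay in PVT1. At chr8:128821501-128822500, in a PVT1 intron, A2780 held 0.645, 0.496 and 0.496 FPKM and CP70 held 2.50, 1.92 and 1.59. Every CP70 library was above every A2780 library, with a log2 fold change of 1.69 (SE 0.279, adjusted p = 8.32e-08), and it was 1.11 with median centring. The sites at chr8:128863801-128864800 and chr8:128865601-128866600 rose by 1.35 and 1.58 (adjusted p = 1.89e-05 and 6.59e-08). Of the 87 PVT1 windows, only 9 passed the filter on low values and were tested. Of these, 7 were higher at adjusted p under 0.05, and 5 of those stayed so with median centring.

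The lower window, chr8:129799801-129800800, is in a CCDC26 intron over 1 Mb downstream of MYC. It held 1.41, 2.03 and 1.60 FPKM in A2780 and 0.152, 0.479 and 0.377 in CP70, a log2 fold change of -2.10 (SE 0.344, adjusted p = 6.20e-08). Without CP70 replicate 1 the change was -1.75 and no call was made, and without any 1 of the A2780 libraries the window fell under the filter on low values. The same window was also lower for PEO4 than for PEO1 (log2 fold change -1.57, adjusted p = 2.81e-12) and higher for PEA2 than for PEA1 (1.25, adjusted p = 3.04e-07).

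In the PEA pair, PEA2 was lower than PEA1 at sites in the PVT1 introns and higher at sites in the flanks on both sides. Of 172 windows tested, 5 were called higher (2.91%, against 11.2% of all windows) and 5 lower (2.91%, against 1.42%), in 4 sites each. At adjusted p under 0.05, 56 (32.6%) were higher and 49 (28.5%) lower, beside 43.0% and 21.4% of all windows and 34.1% and 16.7% of the rest of 8q. The median log2 fold change was 0.19, beside 0.31 over all windows and 0.15 on 8q. Higher windows made up 53.3% of these, but 34.8% with median centring (23.3% of the windows tested higher and 43.6% lower, against 34.4% and 37.2% of all windows), 34.2% with 8q centring and 37.1% with quantile normalization, so the split turned with the scaling. Without the filter on low values, 58 of 221 windows (26.2%) were higher and 57 (25.8%) lower, against 39.8% and 18.2% of all windows. The median log2 fold change was then -0.07, beside 0.30 over all windows and 0.07 on the rest of 8q.

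The direction differed by section. In the PVT1 gene 11 of 75 windows tested were higher and 27 lower at adjusted p under 0.05, and over MYC 1 was higher and 5 lower of 8. Upstream of MYC 27 were higher and 16 lower of 64, and downstream of PVT1 16 were higher and 1 lower of 22. These section counts are for the FPKM as deposited only. The split over the whole locus turned with the scaling, so the balance within a section may move as well.

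The site with the strongest loss was chr8:129027601-129028600 in a PVT1 intron, with 6.34, 6.11 and 4.41 FPKM in PEA1 and 0.605, 0.694 and 0.754 in PEA2. The other 4 lines were also low there, with means of 0.343 to 1.07. Its log2 fold change was -2.85 (SE 0.236, adjusted p = 8.33e-32). PVT1 intron windows at chr8:128876401-128877400 and chr8:128897101-128898100 fell by 2.53 and by 2.00 on the log2 scale, from 4.32 to 0.684 FPKM and from 4.55 to 1.05. The latter call was lost without PEA1 replicate 2 or PEA2 replicate 3, at -1.81 and -1.87. Outside PVT1 the intergenic window chr8:127543501-127544500, with 2.06 ± 0.282 FPKM in PEA1 and at most 0.551 in the other line means, had a log2 fold change of -2.04, and its call was lost without PEA1 replicate 1 (-1.95) or PEA2 replicate 1 (-1.56).

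The largest gain was downstream of PVT1 in an intron of the transcript ENSG00000286034, at chr8:129356101-129357100. It held 0.288, 0.405 and 0.767 FPKM in PEA1 and 3.79, 3.29 and 3.59 in PEA2, with a log2 fold change of 2.72 (SE 0.256, adjusted p = 7.74e-25), and every other line mean was at or below 0.509. The start window of ENSG00000253530 rose from 0.977 to 5.37 FPKM (2.33, adjusted p = 3.48e-22). A PCAT1 intron site at chr8:128047501-128048500 rose from 1.59 ± 0.138 to 7.47 ± 0.782 FPKM (2.16, adjusted p = 3.56e-20), beside 13.2 and 10.9 FPKM in PEO1 and PEO4. The window chr8:128608201-128609200, at -139.8 kb from the MYC start, rose from 0.719 to 3.46 FPKM (2.09, adjusted p = 1.75e-16). Under median centring the changes at ENSG00000253530, in PCAT1 and at this window were 1.96, 1.79 and 1.72 and the calls were lost, and the call at this window was also lost without PEA2 replicate 2 (1.94).

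In the PEO pair, PEO4 was higher at distal sites near the 3′ end of PVT1, downstream of PVT1 and upstream of MYC, and lower at sites upstream of MYC. Of 202 windows tested, 17 in 11 sites were called higher (8.42%, against 2.72% of all windows) and 3 in 2 sites lower (1.49%, against 5.78%). The rest of 8q had 8.78% called higher and 2.01% lower. At adjusted p under 0.05, 75 (37.1%) were higher and 59 (29.2%) lower, against 21.9% and 45.8% of all windows and 45.9% and 26.9% of the rest of 8q. The median log2 fold change was 0.06, beside -0.30 over all windows and 0.28 on the rest of 8q. Higher windows made up 56.0% of these, and 77.0% with median centring (51.5% of the windows tested higher and 15.3% lower, against 35.4% and 31.3% of all windows), 71.1% with quantile normalization and 49.0% with 8q centring.

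All 17 windows called higher, in 11 sites, were distal. So were the 3 called lower, and 80.5% of all windows of the locus are distal. The strongest gain was at chr8:129161701-129162700 in a PVT1 intron, with 0.405, 0.349 and 0.334 FPKM in PEO1 and 6.45, 6.43 and 5.98 in PEO4. The log2 fold change was 3.79 (SE 0.236, adjusted p = 2.44e-16), and PEA1, with 2.21, 2.15 and 1.29, was the sole other line with a mean above 1 FPKM. Neighbouring PVT1 intron sites at chr8:129163501-129164500 and chr8:129177001-129178000 rose by 3.09 and 2.88, from 0.359 to 3.70 FPKM and from 0.366 to 3.31. The PEO1 levels at these 3 windows rest on 2 to 5 reads per library.

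Upstream of MYC, the window chr8:128638801-128639800, at -109.2 kb, held 0.607, 0.262 and 0.557 FPKM in PEO1 and 5.99, 6.53 and 5.93 in PEO4, a log2 fold change of 3.50 (SE 0.247, adjusted p = 6.97e-15). The other 4 line means were between 0.429 and 0.660. At chr8:128354401-128355400, in an intron of CASC8, PEO1 held 0.405, 0.524 and 0.669 FPKM and PEO4 3.84, 4.66 and 4.08 (2.78, adjusted p = 3.70e-12), with the other line means at or below 0.428. The PEO1 levels at both upstream windows rest on 3 to 6 reads per library. Downstream of PVT1 8 of 34 windows tested were called higher, among them chr8:129547801-129548800 in a LINC00824 intron, chosen after its values were seen, with 0.809, 1.31 and 1.89 FPKM in PEO1 and 9.36, 9.02 and 10.3 in PEO4.

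The 3 windows called lower in PEO4 lay upstream of MYC. At chr8:128608201-128609200 PEO1 held 11.4, 10.7 and 12.1 FPKM and PEO4 2.33, 2.26 and 2.19 (log2 fold change -2.29, SE 0.144, adjusted p = 3.07e-16). The intergenic window chr8:127558801-127559800 fell by 2.24 on the log2 scale, from 9.61 ± 1.38 to 1.96 ± 0.258 FPKM. Both changes were smaller than 2 in size with median centring, at -1.95 and -1.89. The window behind MYC described above, chr8:128754901-128755900, fell by 1.79 (adjusted p = 1.44e-12) without reaching a call.

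**Figure D4:**
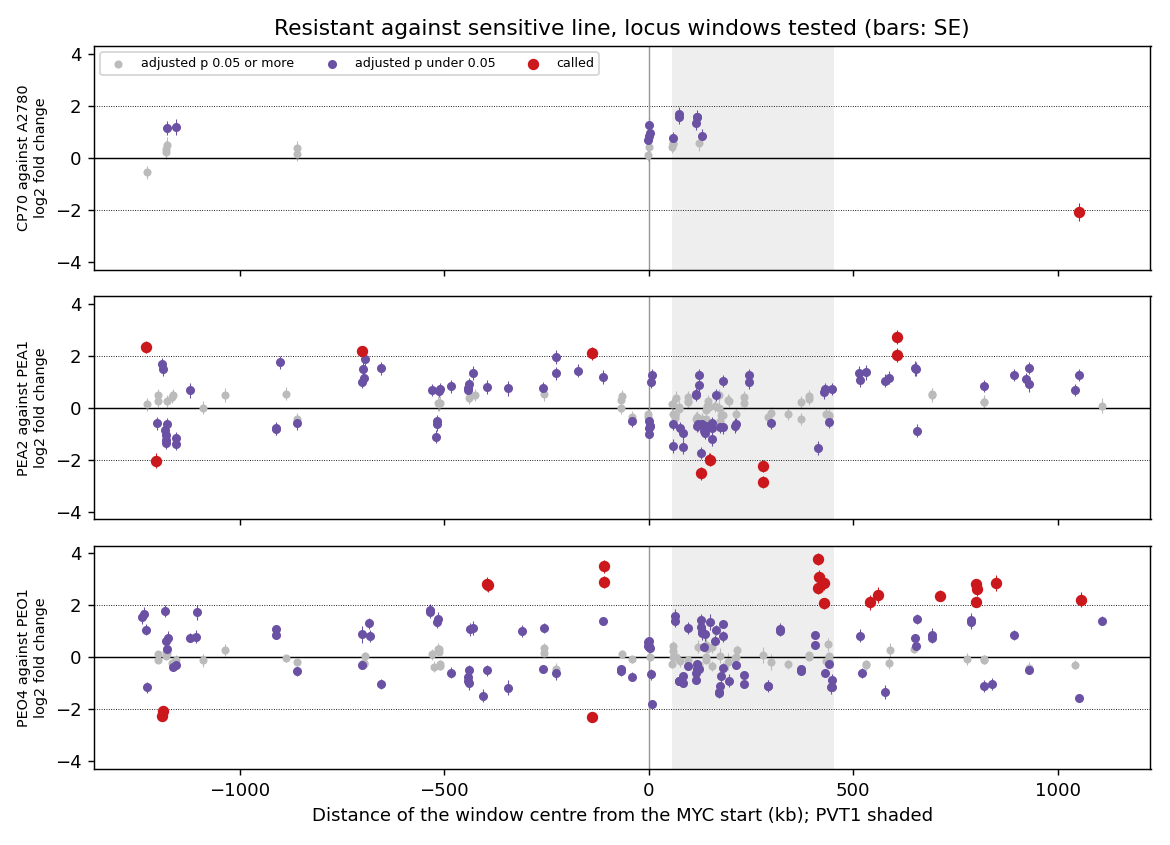
Log2 fold change of the resistant against the sensitive line (vertical axis, bars of 1 SE) for the locus windows tested in each pair, against the distance from the MYC start in kb, with PVT1 shaded and the thresholds of 2 dotted. Red points are called windows, of which there are 1 for CP70, 10 for PEA2 with its losses mainly in PVT1, and 20 for PEO4 with gains mainly from the 3′ end of PVT1 onwards.

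**Figure D5:**
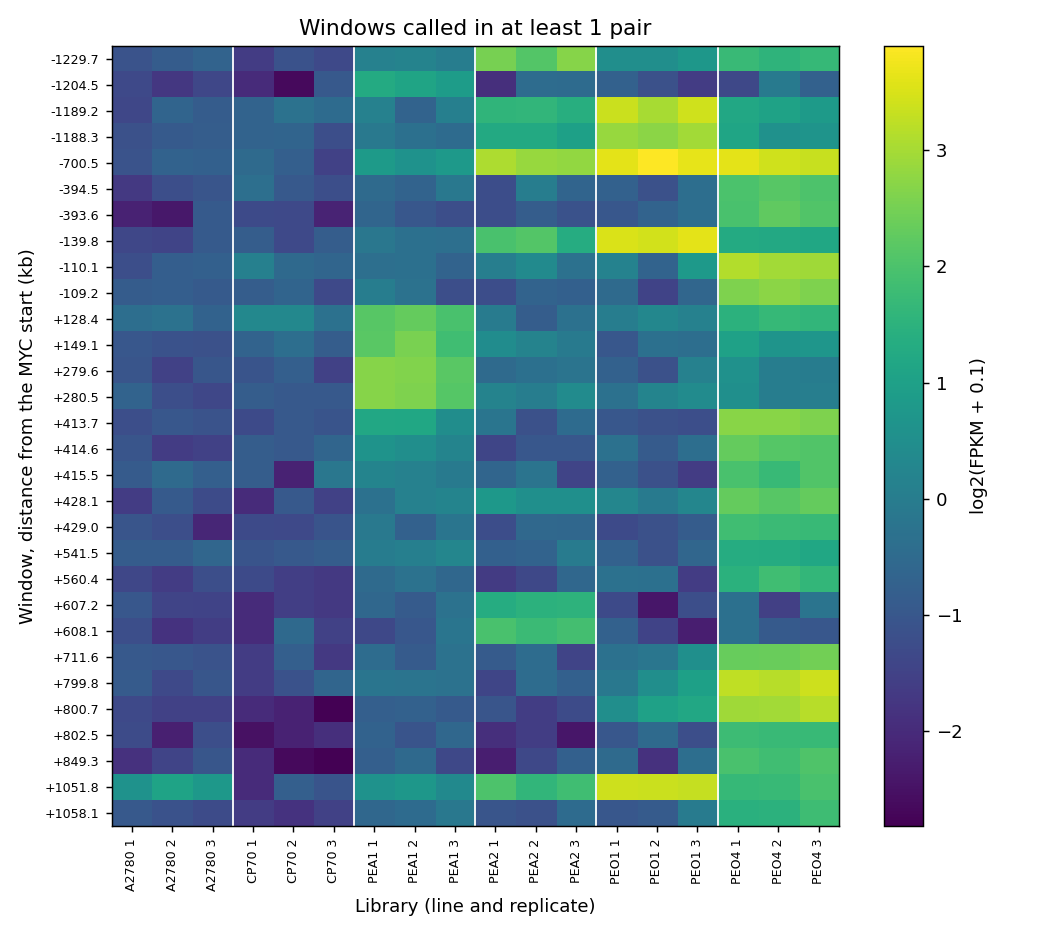
Log2(FPKM + 0.1) as colour in each of the 18 libraries (horizontal axis) for the 30 windows called in at least 1 pair (vertical axis, distance from the MYC start in kb). A block of windows from 128.4 to 280.5 kb is bright in PEA1, and a block from 413.7 to 429.0 kb and most windows from 541.5 kb on are bright in PEO4, with the pair at 607.2 and 608.1 kb bright in PEA2 instead.

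The pairs were also compared with each other. The difference of the log2 fold changes between pairs was called for 16 of 132 windows (12.1%, against 12.8% of all windows) between the PEA and A2780 pairs, for 25 of 181 (13.8%, against 8.12%) between the PEO and A2780 pairs and for 37 of 218 (17.0%, against 26.6%) between the PEO and PEA pairs. These 3 contrasts share lines and are not independent. Between the PEO and A2780 pairs the number called higher was 18, and it was 11 without PEO4 replicate 2 or replicate 3. Between the PEA and A2780 pairs the number called higher was 5, and it was 8 without A2780 replicate 2, 9 without CP70 replicate 1 and 3 without PEA2 replicate 2.

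Among the named windows, some changed in opposite directions. At chr8:128608201-128609200 PEA2 gained and PEO4 lost, and the changes differed by -4.38 (SE 0.284, adjusted p = 1.10e-17). At chr8:128876401-128877400 in PVT1, PEA2 lost and PEO4 rose from 1.02 to 2.93 FPKM (log2 fold change 1.44, adjusted p = 9.30e-07), and the changes differed by 3.97 (SE 0.326). At the PVT1 intron site chr8:128821501-128822500, CP70 rose and PEO4 fell from 11.4 to 6.02 FPKM (log2 fold change -0.90, adjusted p = 1.06e-07), and the changes differed by -2.59 (SE 0.287, adjusted p = 8.13e-09). Over the MYC exon window at chr8:128749501-128750500 the PEA and A2780 pairs differed by -2.29 (adjusted p = 6.68e-09).

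The promoters of the MYC network, 62 genes known as partners, antagonists, paralogues, cofactors, textbook targets or regulators of MYC, were described by their start windows. Of these, 60 had a start window in the table and 58 or 59 were tested in each pair. None passed the threshold for a call in any pair by limma, while edgeR on the recovered reads called 4 of them for PEA2 against PEA1 and 0 for each of the other pairs. At an unadjusted p under 0.05, 29 were higher and 0 lower for A2780 with CP70, 5 higher and 28 lower for the PEA lines and 20 higher and 8 lower for the PEO lines. At adjusted p under 0.05 the A2780 pair had 21 higher (35.6%) and 0 lower, the PEA pair 5 higher (8.62%) and 24 lower (41.4%) and the PEO pair 17 higher (28.8%) and 8 lower (13.6%). Over all windows tested, at gene starts or not, the shares were 47.5% and 2.29%, 43.0% and 21.4%, and 21.9% and 45.8%. The median log2 fold changes were 0.57, -0.41 and 0.11, beside 0.59, 0.31 and -0.30 over all windows. These splits moved with the scaling, and with median centring they were 1 higher and 3 lower, 3 higher and 43 lower, and 45 higher and 3 lower. Outside the locus the table holds 57371 distal windows and 31836 near a gene start, and shares over gene starts alone are not given. Near gene starts, median FPKM was 1.38 for A2780, 2.13 for CP70, 2.28 for PEA1, 2.09 for PEA2, 4.77 for PEO1 and 4.41 for PEO4. Over distal windows it was 0.477, 0.529, 0.801, 1.57, 2.32 and 1.68. Whether the network differs from gene starts in general was not tested.

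In the A2780 pair the largest changes were at YAP1, a transcriptional coactivator of the Hippo pathway (1.23, adjusted p = 6.74e-04), and at MAX, the dimer partner of MYC, which rose from 4.18 ± 0.813 to 8.92 ± 1.41 FPKM (1.08, adjusted p = 0.00376). In the PEA pair the promoters of MNT, a repressor that competes for MAX, and of FBXW7, a ubiquitin ligase that marks MYC for degradation, fell by 1.82 and by 1.71 on the log2 scale (adjusted p = 1.30e-14 and 1.54e-12), while FOXM1, a proliferation factor, and CCND2, a cyclin, rose by 1.28 and 1.24. In the PEO pair CDKN1A, a cell-cycle inhibitor that MYC represses, rose from 2.43 ± 0.302 to 7.36 ± 0.869 FPKM (1.56, adjusted p = 1.02e-10) and TERT, the catalytic subunit of telomerase, rose by 1.21. DKC1 and NOP56, both of nucleolar ribonucleoprotein particles, fell by 1.05 and by 0.85. These named changes kept their direction with median centring, quantile normalization and 8q centring, but not their size. With median centring the changes at YAP1 and MAX shrank to 0.65 and 0.51, while that at CDKN1A grew to 1.90.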

How the data were processed

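Members and lists were chosen with earlier results of these data known. According to the study's methods, the authors removed duplicates (Picard), aligned reads to hg19 (Bowtie2, unique alignments), removed blacklisted and mitochondrial reads, counted reads in 1000 bp windows stepping by 900 bp, and deposited FPKM values from edgeR. Versions were not given in the sources used here, and no shift for Tn5 was described. As windows are of equal length, the deposited FPKM equals RPM. All windows of the table pass 2 FPKM in 2 or more of the 18 libraries, as seen in the values. The study's methods describe a window filter with a lower and an upper limit on depth. How that filter relates to the deposited table was not tested. In 17 libraries the lowest steps gave whole reads (100% of values whole, tolerance 0.1 reads), and A2780 replicate 1 gave them too without a value of 1 read; edgeR 4.0.16 was run on these reads as an alternative. Windows matched GRCh37 at 23 of 23 chromosome steps and were annotated by their centre with GENCODE 44 mapped to GRCh37; coordinates count from 1.

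For each pair, log2(FPKM + 0.1) was compared over all windows with a mean above 1 FPKM with limma 3.58.1 (eBayes with trend, R 4.3.3), as 3 against 3 libraries. Windows were called at Benjamini-Hochberg adjusted p below 0.001 and log2 fold change beyond 2; a wider rule took adjusted p under 0.05. Fold changes are understated at low values. Differences between pairs used the 12 libraries of both pairs. The labels do not say whether replicates are separate cultures, so p-values measure the spread between these libraries, which may be technical. Reads carry no molecular identifiers, so read numbers cover counting error only. The script was tested on simulated data.

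The windows named were those at gene starts and within 5 kb of the MYC start, up to 4 per pair and direction with the largest change (called first, then at adjusted p under 0.05, skipping neighbours), the 6 highest and up to 2 most particular to each line; the 5 promoters most like MYC and PVT1; and up to 2 network genes per pair and direction. Alternatives were a pseudocount of 1, no filter, median centring, quantile normalization, 8q centring, edgeR, a replicate block and leaving out each library; distal windows only was added after seeing the data. No sequences are shown.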

Additional observations from a re-analysis of the deposited data

Results flagged for a closer look

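The following windows were drawn from the named windows only. At each, the difference between the log2 fold changes of 2 pairs passed the threshold for a call (limma, 12 libraries). Over all locus windows tested, 16, 25 and 37 passed it in the 3 contrasts, in the order given below, so the list is not complete. The 3 contrasts share lines. PEA minus A2780 gave 2.81 at the window starting at 127518301, 2.25 at 128047501, -2.29 at 128749501 over MYC, and, within PVT1, -2.30 at 128865601, -3.09 at 128876401, -2.46 at 128897101 and -2.93 at 129027601. Downstream it gave 2.51 at 129356101 and 3.35 at 129799801.

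PEO minus A2780 gave -2.74 at 127558801, 2.55 at 128354401, -2.54 at 128608201 and 3.59 at 128638801 upstream of MYC. Within PVT1 it gave -2.59 at 128821501, -2.22 at 128863801, 3.80 at 129161701, 3.42 at 129163501 and 2.67 at 129177001.

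PEO minus PEA gave -3.91 at 127558801, -2.45 at 128047501, 2.90 at 128354401, -4.38 at 128608201, 3.91 at 128638801 and -3.06 at 128754901 behind MYC. Within PVT1 it gave 3.97 at 128876401, 3.36 at 128897101, 3.63 at 129027601, 5.35 at 129161701, 3.95 at 129163501 and 3.31 at 129177001, and downstream -2.83 at 129799801. At 128608201, PEA2 lay above PEA1 and PEO4 below PEO1 in every library, while at 129027601 the PEO lines were low (0.619 and 1.07 FPKM) and the difference rests on PEA1.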

How the results depend on the processing

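The counts depend on the scaling and on the pseudocount, and the causes were not tested beyond the construction of each alternative. With a pseudocount of 1, which shrinks low windows, the calls were 0 lower in the A2780 pair, 0 higher and 0 lower in the PEA pair, 4 higher and 0 lower in the PEO pair, 0 and 0 for PEA minus A2780, 3 and 2 for PEO minus A2780 and 9 and 5 for PEO minus PEA. PEA calls higher were 1 with median centring, quantile normalization or 8q centring and 2 with edgeR, and calls lower were 10 with quantile normalization and 8 with edgeR. PEO calls lower were 0 with median centring and 1 with quantile normalization or edgeR. PEA minus A2780 higher was 10 without the filter and 3 with quantile normalization. PEO minus A2780 was 31 higher and 1 lower with median centring and 2 lower with quantile normalization. PEO minus PEA was 58 higher and 6 lower with median centring and 55 higher and 6 lower with quantile normalization.

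Leaving out 1 library gave 0 to 1 calls lower in the A2780 pair, 4 to 6 higher and 4 to 6 lower in the PEA pair, 16 to 18 higher and 2 to 3 lower in the PEO pair, 3 to 9 higher and 9 to 12 lower for PEA minus A2780, 11 to 20 and 6 to 10 for PEO minus A2780 and 23 to 30 and 10 to 13 for PEO minus PEA.

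Locus against 8q, in the order A2780, CP70, PEA1, PEA2, PEO1 and PEO4: with windows over 1 FPKM -0.21, -0.13, 0.44, 0.20, 0.51 and 0.49; with distal windows (added after seeing the data) -0.15, -0.04, 0.33, 0.09, 0.15 and 0.43; with a pseudocount of 1 -0.11, -0.12, 0.14, 0.02, 0.11 and 0.21. Against 5 Mb on either side A2780 was at -0.09, CP70 at 0.00, PEA2 at -0.19, PEO1 at 0.02 and PEO4 at 0.17, and against windows off chromosome 8 A2780 was at -0.59, CP70 at -0.79, PEA1 at 0.37, PEO1 at -0.11 and PEO4 at 0.52. Leaving out 1 library gave -0.32 to -0.26, -0.32 to -0.28, 0.17 to 0.28, -0.02 to 0.06, 0.13 to 0.17 and 0.26 to 0.30.

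Network counts at adjusted p under 0.05 with median centring were 1 higher and 3 lower, 3 and 43, and 45 and 3. The PVT1 start window in the A2780 pair was -0.03 with median centring, -0.07 with quantile normalization and -0.06 with edgeR, and in the PEO pair -0.12 with 8q centring, -0.05 without PEO1 replicate 1 and -0.04 without PEO4 replicate 2 (up to 0.07 without another library). Of 348 values at 27 named window comparisons under the alternatives, 289 kept direction and side of the threshold, 47 lost the threshold, 6 gained it and 6 changed sign.

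With the replicate number as a block, calls were 1 lower in the A2780 pair, 5 and 5 in the PEA pair and 17 and 3 in the PEO pair, and the MYC start window in the PEA pair kept its log2 fold change of -0.52 with an adjusted p of 0.115 (limma). Same-numbered libraries deviated together at correlations of -0.41 to 0.04, and different-numbered ones of the A2780 pair at up to 0.43. The deviations are taken from the mean of only 3 libraries per line, which constrains these values. They cannot show whether the numbers pair samples. Total depth was lowest in PEO1, with 8972042 to 11461290 reads per library, so 1 read there stood for 0.0873 to 0.111 FPKM. Reads within the locus were fewest in CP70, with 2385 to 3326 per library, against 10189 to 13274 in PEO1. In A2780 and CP70 the filter on mean FPKM, which does not scale with depth, left 26 of 221 windows.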
